A study of Homo sapiens with 9 samples.

Results

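The genes described here encode the parts of the proteasome, its caps and activators, and the chaperones that help to build it. They were followed in A549, an established human lung adenocarcinoma cell line grown in DMEM with fetal bovine serum. The members are the rows whose Ensembl ID belongs to a protein-coding gene with a symbol starting PSMA, PSMB, PSMC, PSMD, PSME or PSMG and then a number. The interferon-inducible core subunits PSMB8 and PSMB9 were left out by that rule. It gave 47 of 62257 rows. Taken by the letter it also includes PSMC3IP, a partner protein in homologous recombination, and PSME3IP1, a protein that binds PSME3. These 2 are not proteasome subunits and are described apart. The other 45 comprise 17 core genes (8 of the alpha rings and 9 of the beta rings), 17 cap genes, 4 activators and 7 assembly chaperones. Within the cap are 6 ATPases of the base, 3 other subunits of the base and 8 subunits of the lid.

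Libraries were sequenced after 96 h from 3 groups of 3. Control cells received PBS. Cells of the group labelled ddp received apoEVs, extracellular vesicles shed by dying cells, from cells driven into apoptosis with cisplatin. Those of the group labelled sts received apoEVs from cells killed with staurosporine, a kinase inhibitor. The labels name no vesicle dose and no line for the dying cells, and a control with vesicles of living cells is not part of the comparisons. Nor do they tell whether each library is a culture of its own, so p-values measure the spread between these libraries, which may be technical. Total counts ran from 13799950 to 16526399 per library, and mitochondrial transcripts took 11.4% to 13.1% of them. All 6 epithelial markers were detected in every group, so RNA of epithelial type was present, though not all of them were at a high level. The summed level of those markers was lower with vesicles, at 11210 to 12262 CPM (counts scaled to the library total) in control, 6918 to 7511 in ddp and 7284 to 8739 in sts libraries. KRT8 and KRT18 make up most of that sum, whereas EPCAM had only 1.28 to 3.69 CPM and CDH1 7.69 to 19.9 over all libraries. KRT7 was not lower with ddp (log2 fold change 0.15, not called), and KRT19 was higher with sts, at 139, 163 and 135 CPM against 121, 98.8 and 122 in control. Of the 6 leukocyte markers 4 stayed under 1 CPM in every group, while the list summed to 10.97 to 16.5 CPM in control, 14.0 to 15.4 in ddp and 20.3 to 25.4 in sts libraries. The sts range rests on CD14 and ITGAM, and PTPRC, which marks leukocytes as a class, had 0 counts outside 1 sts library. Endothelial markers summed to 1.15 to 1.74 CPM in control and ddp and 2.49 to 4.32 in sts libraries, and fibroblast markers to 1.88 to 3.71 over all libraries. The part of these shifts in the values of the proteasome genes was not tested, and fewer cells of a type and less RNA per cell cannot be told apart in bulk libraries.

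The proteasome is the barrel-shaped protease that degrades proteins tagged with ubiquitin. The beta rings of its core hold the cutting sites (PSMB5, PSMB6 and PSMB7 carry the catalytic residues), closed on both sides by alpha rings. A regulatory cap sits on the alpha ring. Its base unfolds substrates with a ring of ATPases, and its lid removes the ubiquitin chain. Other activators, PSME1 with PSME2, PSME3 and PSME4, can bind the core in place of that cap. When proteasome activity is short, the transcription factor NFE2L1 raises the subunit genes together through antioxidant response elements in their promoters.

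Short motifs were searched for in the promoters of the members, from 250 bases before to 50 bases after each start in RefSeq (GRCh38.p14), on both strands. They were TGACNNNGC, the core of the antioxidant response element, the CCAAT box bound by NF-Y, and CCGGAAG, a site of ETS factors. The table of promoters matched 41 of the 47 members, and 8 of these have more than 1 start. It holds no entry for PSMA7, PSMB1, PSMB6, PSMB7, PSMD4 and PSMG3. The windows below belong to members called between the vesicle types and were chosen to show the range of motif content, not the largest differences. Capitals mark the motif on either strand. PSMD5 and PSMD1 hold 1 antioxidant response element core each, PSME3 1 CCAAT box, PSMD12 an antioxidant response element core and an ETS site, PSMD14 2 overlapping CCAAT boxes and an ETS site, and PSMB10 none of the motifs.
PSMD5 promoter, chr9:120842873-120843172, minus strand: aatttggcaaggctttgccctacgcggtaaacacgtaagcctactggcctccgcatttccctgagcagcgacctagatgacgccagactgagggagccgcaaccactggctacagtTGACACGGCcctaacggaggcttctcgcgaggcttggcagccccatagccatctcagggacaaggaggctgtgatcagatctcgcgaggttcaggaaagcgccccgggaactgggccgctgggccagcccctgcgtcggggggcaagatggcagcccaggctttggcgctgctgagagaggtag
PSMD1 promoter, chr2:231056617-231056916, plus strand: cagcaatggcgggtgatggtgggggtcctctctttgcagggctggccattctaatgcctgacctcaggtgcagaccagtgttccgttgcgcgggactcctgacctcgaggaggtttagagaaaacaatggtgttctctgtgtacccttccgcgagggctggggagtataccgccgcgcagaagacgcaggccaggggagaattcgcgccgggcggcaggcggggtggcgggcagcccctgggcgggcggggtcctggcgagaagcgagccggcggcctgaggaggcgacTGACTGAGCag
PSME3 promoter, chr17:42833147-42833446, plus strand: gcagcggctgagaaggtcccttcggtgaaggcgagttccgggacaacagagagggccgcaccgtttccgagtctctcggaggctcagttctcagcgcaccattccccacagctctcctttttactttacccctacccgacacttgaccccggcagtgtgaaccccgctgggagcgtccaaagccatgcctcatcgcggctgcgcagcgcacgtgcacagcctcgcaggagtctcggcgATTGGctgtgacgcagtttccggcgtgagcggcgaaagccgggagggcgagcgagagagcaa
PSMD12 promoter, chr17:67366528-67366827, minus strand: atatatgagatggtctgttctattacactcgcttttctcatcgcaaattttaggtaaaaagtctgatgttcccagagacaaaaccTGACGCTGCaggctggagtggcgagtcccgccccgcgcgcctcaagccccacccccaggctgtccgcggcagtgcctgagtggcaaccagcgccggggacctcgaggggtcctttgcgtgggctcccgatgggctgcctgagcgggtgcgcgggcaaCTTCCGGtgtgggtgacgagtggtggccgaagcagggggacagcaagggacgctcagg
PSMD14 promoter, chr2:161308175-161308474, plus strand: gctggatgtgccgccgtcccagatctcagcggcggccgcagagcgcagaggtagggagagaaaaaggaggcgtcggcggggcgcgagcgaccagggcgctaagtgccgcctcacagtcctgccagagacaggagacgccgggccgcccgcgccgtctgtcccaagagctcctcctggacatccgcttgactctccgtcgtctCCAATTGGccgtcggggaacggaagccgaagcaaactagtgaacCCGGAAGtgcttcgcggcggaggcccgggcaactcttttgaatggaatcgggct
PSMB10 promoter, chr16:67936801-67937100, minus strand: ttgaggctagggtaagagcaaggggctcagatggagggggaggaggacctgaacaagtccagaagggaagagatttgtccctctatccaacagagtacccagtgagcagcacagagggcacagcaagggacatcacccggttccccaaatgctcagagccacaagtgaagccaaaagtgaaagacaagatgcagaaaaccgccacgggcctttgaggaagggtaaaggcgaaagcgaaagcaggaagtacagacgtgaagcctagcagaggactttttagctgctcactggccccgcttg

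Among the 41 matched members, 14 (34.1%) held the antioxidant response element core in at least 1 window, against 16.1% of the 27305 genes of the table. The ETS site was in 16 (39.0%), against 12.2% of all genes. The CCAAT box, the shortest of the motifs, was in 21 (51.2%), against 39.7%. The 27305 genes outnumber the 19877 protein-coding rows of the series, so they were not limited to protein-coding genes, as the members are. Base composition was not matched either, and whether these shares are particular to the members was not tested. No site of one motif overlapped a site of another in the members' windows. A match is a stretch of letters and no evidence that a factor was bound.

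RNA levels of different genes were compared per length, as FPKM (counts divided by gene length and by library size). The deposited lengths are uneven, for example 1447 bases for PSMB6 and 15795 for PSMD1, and the orders below depend on them. PSMA4 (length 6994) had 358 CPM in control against 229 for PSMB5 (length 1549), but 50.7 FPKM against 146. Whether these lengths match the transcripts of these cells was not tested. Within the core, levels of the 14 tested genes differed far more between genes than between groups. PSMA7 was highest, at 239 ± 14.3 FPKM in control, 250.2 ± 15.9 in ddp and 225 ± 13.2 in sts libraries (mean ± SD, n = 3 each). The catalytic subunit PSMB6 followed with 152 ± 10.1, 182 ± 4.39 and 146 ± 12.4 FPKM. PSMB5 (146 ± 9.41 in control) and PSMB4 (145 ± 2.44) lay within 1 SD of PSMB6. The order of the 14 genes was the same in all groups except that PSMB7 stood above PSMB4 in ddp and below it in control and sts. PSMB10, the inducible subunit that takes the place of PSMB7 in the immunoproteasome, was far below the constitutive beta genes, at 5.07 ± 0.315 FPKM in control.

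The cap spanned a narrower range, from PSMD8 (96.3 ± 5.18 FPKM in control) of the lid and PSMC3 (93.1 ± 4.16) of the ATPase ring down to PSMD6 (10.9 ± 0.55). Ratios between the highest and the lowest tested cap gene were 8.81 in control, 9.39 in ddp and 11.8 in sts, against 1428, 1351 and 1140 in the core. The lowest core genes were PSMA2 and PSMA6, described next, but the range does not rest on them alone. Next lowest in control were PSMB10 (5.07 FPKM) and PSMA1 (12.4), far below PSMA7 (239). Among activators PSME3 was at 33.3 ± 1.76 FPKM and PSME4 at 12.3 ± 0.38 in control. Of the chaperones PSMD10 was highest, at 47.2 ± 3.29 FPKM, and PSMG4 lowest, at 1.68 ± 0.163.

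**Figure D1:**
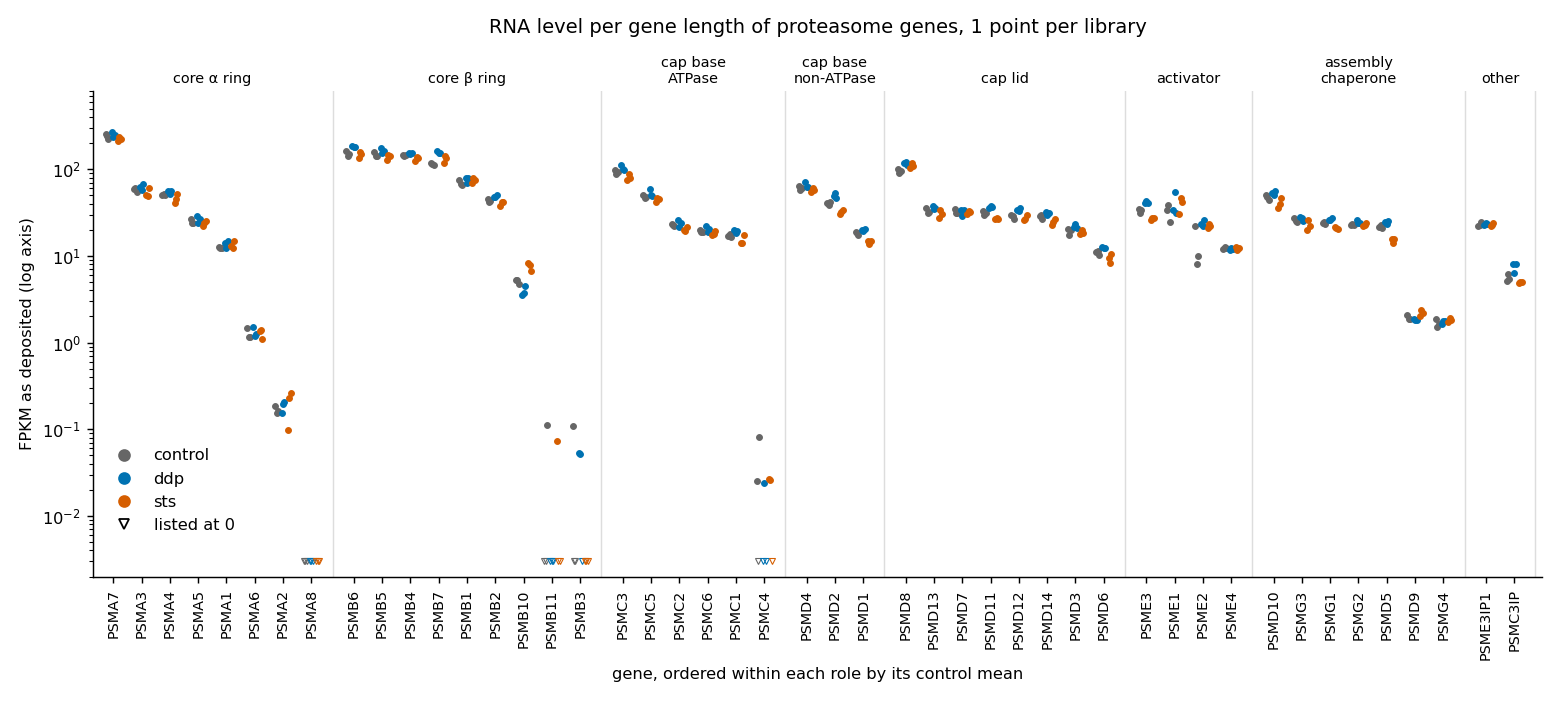
FPKM of each proteasome gene (log axis) in the 9 libraries, grouped by role and ordered by control mean. PSMA7 leads at 239 FPKM in control, most other genes lie between 10.9 and 152, and PSMA8, PSMB11, PSMB3 and PSMC4 are at or near 0, with open triangles for libraries listed at 0.

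Some members were at or near 0 and passed no expression filter. PSMA8, the alpha subunit of the testis, had 0 counts in all 9 libraries, where 3 counts would be 0.182 to 0.217 CPM. PSMB11, the beta subunit of the thymus, was also listed at 0 in 7 of the libraries. PSMB3 had counts of 2, 0 and 0 in control, 1, 1 and 0 in ddp and 0 in each sts library. PSMC4 had 1, 0 and 3 in control, 0, 1 and 0 in ddp and 1, 1 and 0 in sts. PSMB3 and PSMC4 are constitutive subunits that every proteasome needs, so these rows give their counts and not their expression. PSMA2 and PSMA6, constitutive as well, passed the filter with 0.167 ± 0.0156 and 1.26 ± 0.187 FPKM in control. The PSMA2 and PSMA6 rows lie within or across a further protein-coding row on the same strand. Those further rows held a mean of only 0.333 and 8.22 counts per library, where PSMA2 and PSMA6 held 23.4 and 128. Pseudogene rows of PSMA6 held 47.4% as many counts as the gene, a mean of 60.8. The table also has 511 unannotated rows on alternate scaffolds or patches. Whether the pseudogene or unannotated rows took reads of these subunits was not tested. Tests therefore cover 43 of the 47 members.

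Summed over the core and cap genes, RNA was highest in ddp and lowest in sts libraries. The sum was 5576, 5244 and 5250 CPM in the control libraries (replicates 1 to 3), 6147, 5749 and 5946 in ddp and 4779, 5204 and 5232 in sts. All ddp libraries lay above all control libraries, and all sts libraries lay below them. The gap between control and sts was small beside the spread, since the highest sts library (5232) was close to the lowest control library (5244). Core sums were 2486 ± 88.7 in control, 2748 ± 117 in ddp and 2425 ± 155 CPM in sts, and cap sums were 2871 ± 103, 3199 ± 93.6 and 2647 ± 99.3. No p-value is given for these sums, as an exact two-sided permutation test of 3 against 3 libraries cannot go below 0.10. As shares of the total counts, the 47 members took 0.618% to 0.650% in control, 0.678% to 0.710% in ddp and 0.583% to 0.612% in sts libraries.

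**Figure D2:**
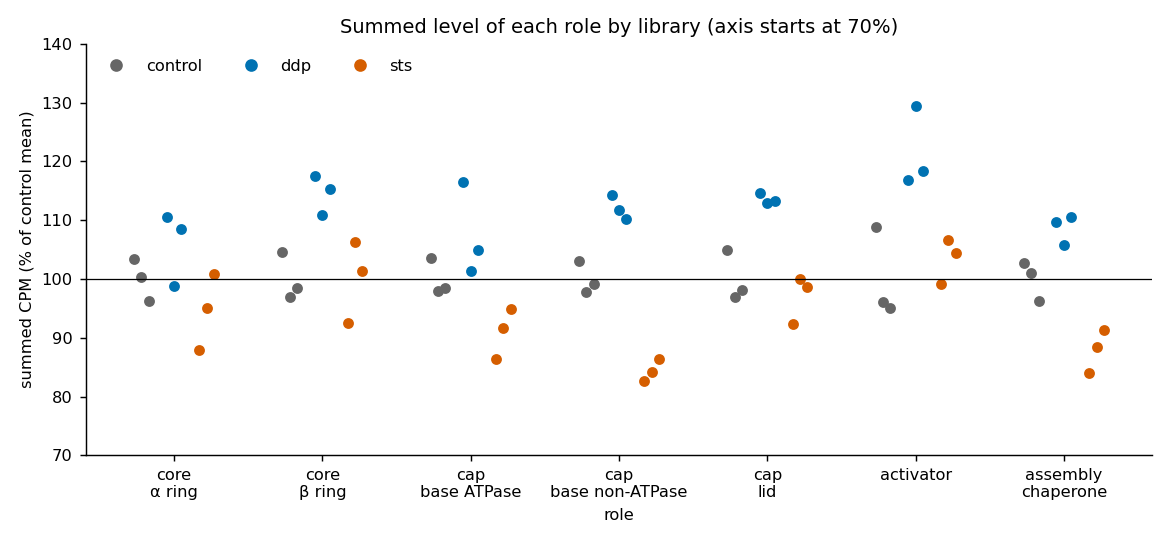
Summed CPM of each role in each library, as a percentage of the control mean of that role; the vertical axis starts at 70%. For the base subunits that are not ATPases, ddp libraries sit at 110.2% to 114% and sts libraries at 82.7% to 86.4%, whereas in the alpha rings the ddp (98.7% to 111%) and sts (87.9% to 101%) libraries overlap.

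Gene by gene, the ordering was shared by most members. Of the 43 tested genes, 36 had their highest mean in ddp and 28 of these also their lowest in sts. How many of all genes tested share these orders was not counted. Of all 16947, 8399 had a log2 fold change above 0 for ddp against control, and 8128 had one below 0 for sts against ddp. Each of the 3 comparisons was read from 1 edgeR quasi-likelihood fit of all genes, and a gene was called higher or lower at a Benjamini-Hochberg adjusted p under 0.05 over 16947 genes. The comparisons share samples, ddp and sts being set against the same controls, so their counts are not independent of each other.

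With cisplatin-derived vesicles, 8 members rose against control and 0 fell, and 35 were not called. Over all genes tested, 7.16% were called higher and 8.32% lower in this comparison. The median log2 fold change of the 43 members was 0.13, against −0.0033 for all genes. Estimates were above 0 for 39 of the 43, most of them small. By role, the calls were 2 of the 7 tested beta genes, 0 of 7 alpha genes, 0 of 5 ATPases, 1 of the 3 other base subunits, 3 of 8 lid subunits, 1 of 4 activators, 0 of 7 chaperones and PSMC3IP. In 20 members all ddp libraries lay above all control libraries, and in 2 (PSMB10 and PSMD9) all lay below, against 15.8% and 16.4% of all genes.

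PSMB7, which carries the trypsin-like site, changed most clearly among them. Its level was 212, 206 and 201 CPM in control, 292, 275 and 279 in ddp and 218, 260 and 243 in sts libraries. Every library of ddp and of sts was above every control library. The log2 fold change of PSMB7 with ddp was 0.45 (SE 0.07, adjusted p 2.82e-05). PSMB6, the caspase-like subunit, read 238, 208 and 221 CPM in control, 272, 264 and 259 in ddp and 197, 233 and 218 in sts. Its ddp libraries stood clear of both other groups, which overlapped. The log2 fold change was 0.26 (SE 0.07, adjusted p 0.0157), with adjusted p of 0.116 without control replicate 2, 0.0640 without control replicate 3 and 0.0745 without ddp replicate 1. PSMB5, the chymotrypsin-like subunit and the main target of proteasome inhibitor drugs, was not called (0.16, 95% interval 0.01 to 0.31, adjusted p 0.156).

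In the cap, PSMD2, a scaffold subunit of the base that also binds ubiquitin receptors, had 202, 194 and 208 CPM in control, 247, 265 and 233 in ddp and 153, 161 and 169 in sts. The groups did not overlap in any pair. The log2 fold change with ddp was 0.30 (SE 0.07, adjusted p 0.00325). Of the lid, 3 subunits rose, PSMD8 by 0.27 (adjusted p 0.00845), PSMD12 by 0.27 (0.0114) and PSMD11, a scaffold of the lid, by 0.22 (0.0288). PSMD8 lost its call without control replicate 2 (adjusted p 0.0737), and PSMD12 without control replicate 3 (0.0895) or ddp replicate 3 (0.0686). PSMD11 lost it when any 1 library was left out of control replicates 2 and 3 or of ddp, with adjusted p up to 0.172. PSMD4, a ubiquitin receptor, and PSMD14, the deubiquitinase of the lid, were not called, with log2 fold changes of 0.08 (95% interval −0.07 to 0.24) and 0.11 (−0.04 to 0.26). Intervals of this width leave room for changes as large as some of those called.

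**Figure D3:**
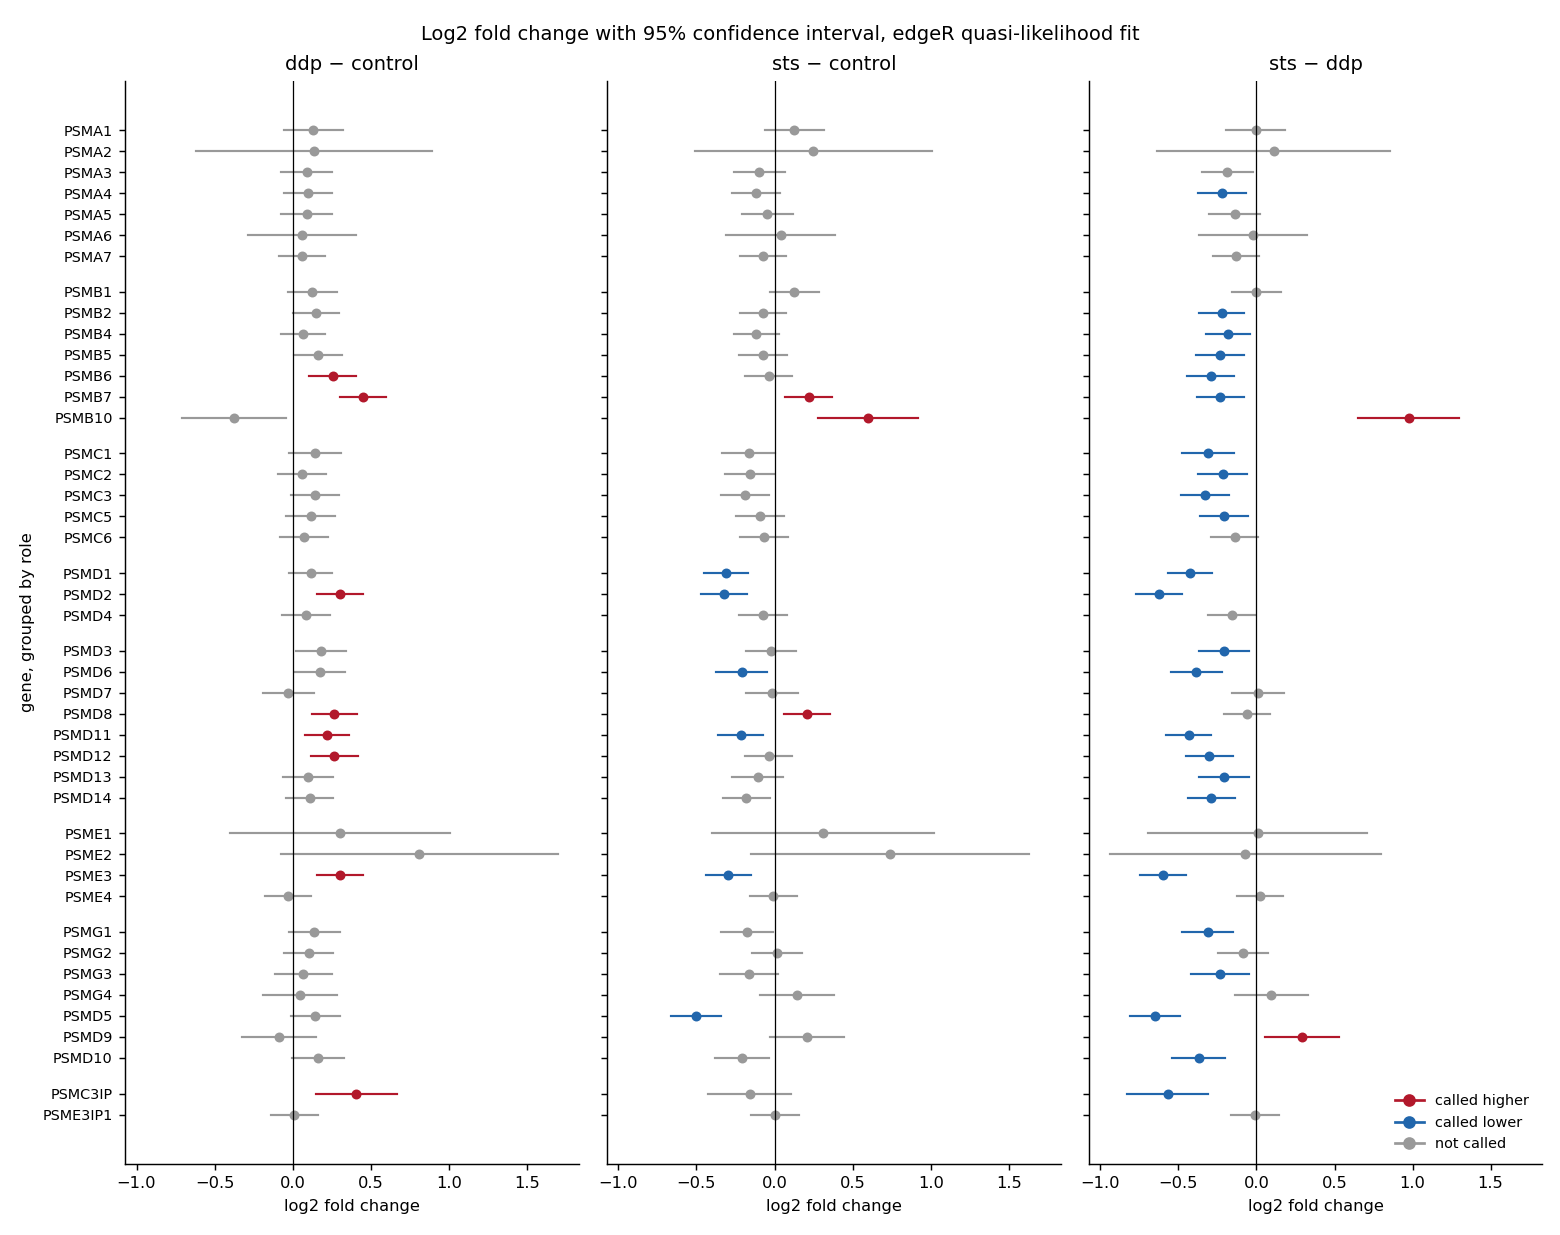
Log2 fold change of the 43 tested members with its 95% confidence interval in each comparison, by role, in the order of the text. Most points lie right of 0 for ddp against control (39 of 43) and left of 0 for sts against ddp (36 of 43), while PSMB10 stands far right in the latter at 0.97.

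Staurosporine-derived vesicles gave a mixed picture against control, with 3 members higher, 6 lower and 34 not called. Of all genes 15.9% were called higher and 16.8% lower, so the share of members called in either direction was not above that of the table. The median was −0.07 on the log2 scale, against 0.01 for all genes. In 4 members all sts libraries lay above all controls and in 10 all lay below, where 21.6% and 21.7% of all genes did so. PSMB7 (0.22, adjusted p 0.0200), PSMB10 (0.60, 0.00310) and the lid subunit PSMD8 (0.21, 0.0238) rose. PSMD1 and PSMD2, the scaffolds of the base, fell by 0.31 (adjusted p 0.000654) and 0.32 (0.000748). The others that fell were the lid subunits PSMD6 by 0.21 (0.0440) and PSMD11 by 0.22 (0.0152), the activator PSME3 by 0.30 (0.00160) and the chaperone PSMD5 by 0.50 (4.71e-06). No alpha gene and no ATPase was called.

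Several of those calls depended on single libraries. PSMB7 lost its call without any 1 of the controls or without sts replicate 2 (adjusted p up to 0.128). For PSMD8 this held for control replicates 2 and 3 and sts replicate 2 (up to 0.186), for PSMD6 for control replicates 1 and 2 and sts replicates 1 and 2 (up to 0.241), and for PSMD11 for control replicate 1 (0.0740). In the other direction, PSMC3 (−0.19, adjusted p 0.0528) and PSMD14 (−0.18, 0.0585) lay just outside the threshold and were called with some libraries left out. Without sts replicate 3 the count of members lower than control was 11 in place of 6, and 15.7% of all genes were lower.

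Most calls were made between the vesicle types. With sts, 24 members were lower than with ddp, 2 were higher and 17 were not called. Of all genes 19.5% were called lower and 20.2% higher, while 24 of 43 members were called lower. The median log2 difference of the members was −0.21, against 0.03 for all genes, and 36 of the 43 estimates were below 0. In 23 of the 43 members all sts libraries lay below all ddp libraries, against 23.2% of all genes. In 2 of the 43 all lay above, against 24.3%. Both groups received vesicles of dying cells, made with different inducers of apoptosis. The labels give no vesicle dose and no source line, so inducer, dose and source cannot be told apart in this comparison. The count of 24 was 15 without ddp replicate 1 and 14 without sts replicate 1, the libraries with the highest and the lowest core and cap sums. Of all genes 16.6% and 16.9% were lower under these omissions.

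**Figure D4:**
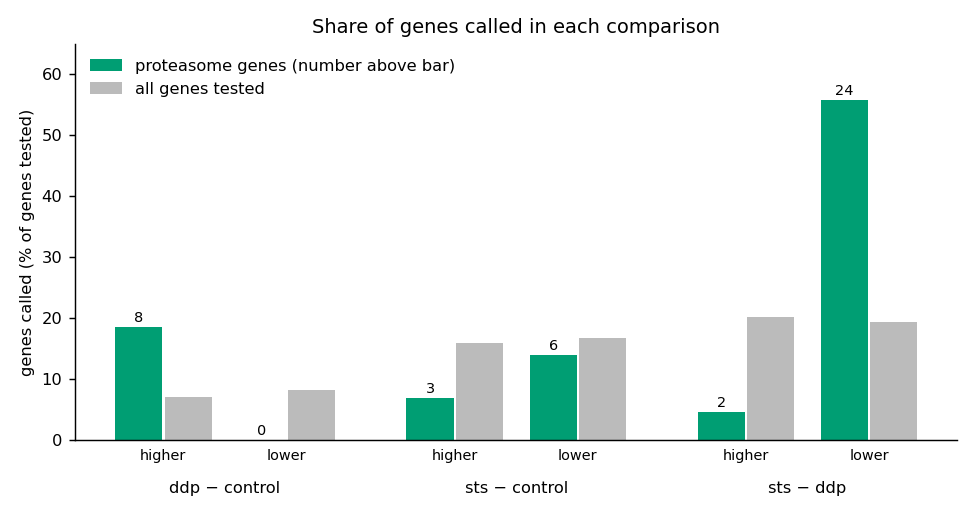
Percentage of tested genes called higher or lower in each comparison, for the 43 tested proteasome genes (green, number above the bar) and for all 16947 genes tested (grey). The green bar stands far above the grey one for sts lower than ddp, 24 genes against 19.5% of all genes, and below it for both directions of sts against control.

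By role, the members lower with sts were 4 of 5 tested ATPases, 2 of 3 other base subunits, 6 of 8 lid subunits 5 of 7 beta genes, 1 of 7 alpha genes, 1 of 4 activators, 4 of 7 chaperones and PSMC3IP. A difference between the roles was not tested. PSMD2 had the largest difference of the cap (−0.63, SE 0.07, adjusted p 2.09e-08), at 233 to 265 CPM in ddp and 153 to 169 in sts. PSMD11 followed, with 257, 267 and 261 CPM in ddp and 193, 198 and 190.5 in sts, where control had 236, 212 and 227. Its groups did not overlap, and the log2 difference was −0.43 (SE 0.07, adjusted p 5.66e-06). PSMD1 differed by −0.42 (adjusted p 7.59e-06), PSMD6 by −0.39 (0.000222), PSMD12 by −0.30 (0.00133) and PSMD14 by −0.29 (0.00196). Smaller differences were called for the lid subunits PSMD3 (−0.21, 0.0352) and PSMD13 (−0.21, 0.0365). PSMD3 lost its call without ddp replicate 1 or 2 or sts replicate 1 or 3, and PSMD13 without ddp replicate 1 or 3 or sts replicate 1 or 3. Not called in the cap were the ATPase PSMC6 (−0.14, 95% interval −0.29 to 0.01), PSMD4 (−0.16, −0.31 to −0.01), PSMD7 (0.01, −0.16 to 0.17) and PSMD8 (−0.06, −0.20 to 0.09).

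Among the ATPases PSMC3 differed most between the vesicle types. It had 223, 203 and 216 CPM in control, 255, 230.4 and 223 in ddp and 176, 204 and 183 in sts. The lowest ddp library was above the highest sts library, and control lay between and overlapped both. The log2 difference between sts and ddp was −0.33 (SE 0.08, adjusted p 0.000644). PSMC1 was at −0.31 (0.00293), PSMC2 at −0.22 (0.0233) and PSMC5 at −0.21 (0.0280). PSMC2 lost its call without ddp replicate 1 (adjusted p 0.160) or 3 or sts replicate 1 or 2, and PSMC5 without ddp replicate 1 (0.250) or sts replicate 1.

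Of the catalytic subunits, PSMB6 (−0.29, adjusted p 0.00192), PSMB5 (−0.23, 0.0124) and PSMB7 (−0.23, 0.0112) were all lower with sts than with ddp. PSMB5 read 246, 219 and 222 CPM in control, 273, 241 and 253 in ddp and 201, 230.4 and 221.5 in sts. Its sts libraries lay below the ddp libraries and overlapped control. PSMB5 and PSMB7 lost their calls without ddp replicate 1 (adjusted p 0.0876 and 0.0546) or without sts replicate 1 (0.0736 and 0.0781). The structural beta genes PSMB2 (−0.22, 0.0128) and PSMB4 (−0.18, 0.0361) were lower as well, and PSMB1 was near 0 (−0.0003, 95% interval −0.16 to 0.16). PSMB2 was no longer called without ddp replicate 3 or sts replicate 1, and PSMB4 without ddp replicate 1 or 3 or sts replicate 1. In the alpha rings PSMA4 alone was called (−0.22, 0.0198), and it lost its call without ddp replicate 1 or 3 or sts replicate 1. PSMA7, the most abundant member, was at −0.13 (95% interval −0.28 to 0.02).

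PSMB10 was higher with sts than with ddp, unlike the 5 beta genes that were lower in that comparison. It had 8.65, 8.55 and 7.77 CPM in control, 5.81, 6.16 and 7.31 in ddp and 14.0, 13.0 and 10.98 in sts. All sts libraries were above all controls, and all ddp libraries were below them. The log2 difference was 0.97 between sts and ddp (SE 0.16, adjusted p 7.94e-06) and 0.60 between sts and control (SE 0.16, adjusted p 0.00310), both kept under every setting run. With ddp against control it was −0.37 (95% interval −0.71 to −0.04, adjusted p 0.124) and not called. Per length PSMB10 stayed low, at 7.61 ± 0.873 FPKM in sts, where the constitutive PSMB7 was at 132 ± 11.8. A second protein-coding row on the same strand overlaps PSMB10 and held 23.6% as many counts. Its own log2 difference between sts and ddp was 0.45 (adjusted p 0.310). No source used here says how reads were divided between these rows, so the PSMB10 level is uncertain.

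Of the activators, PSME3 was called in each comparison. PSME3, the nuclear activator that drives degradation without ubiquitin, had 179, 162 and 179 CPM in control, 211, 221 and 208 in ddp and 137, 145 and 142 in sts. Its groups did not overlap in any pair. PSME3 rose with ddp by 0.30 (SE 0.07, adjusted p 0.00276) and fell with sts by 0.30 (SE 0.07, 0.00160), a log2 difference of −0.60 between the vesicle types (SE 0.07, 3.65e-08). PSME4, which caps the core in the nucleus, had 123 to 134 CPM over all 9 libraries. Its log2 fold changes were −0.03 with ddp (95% interval −0.18 to 0.12) and −0.01 with sts (−0.15 to 0.14). BECN1 lies on the opposite strand across part of PSME3 and held 43.3% as many counts. It was not called in any comparison, with a log2 difference of 0.10 between sts and ddp (adjusted p 0.314).

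PSME1 and PSME2, which form 1 activator and are induced by interferon gamma, varied between libraries of the same group. PSME2 had 80.5, 28.9 and 36.5 CPM in control, 83.1, 79.8 and 93.8 in ddp and 78.0, 84.8 and 81.4 in sts. Control replicate 1 was at the level of the vesicle groups, and the other two controls were far below. The log2 fold change of PSME2 was 0.81 with ddp (95% interval −0.08 to 1.70, adjusted p 0.220) and 0.74 with sts (−0.15 to 1.63, 0.187), and neither was called. Without control replicate 1 they were 1.39 (adjusted p 1.82e-11) and 1.303 (2.56e-11), so 1 library decides this result. PSME1 had 59.9, 68.8 and 44.4 CPM in control, 60.0, 97.8 and 55.7 in ddp and 56.1, 83.8 and 74.8 in sts, without a call in any comparison. EMC9, on the opposite strand, shares 9 bases with PSME1. Its counts were 31, 29 and 25 in control, 189, 39 and 24 in ddp and 16, 24 and 256 in sts, so single libraries stood far above their group there as well.

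**Figure D5:**
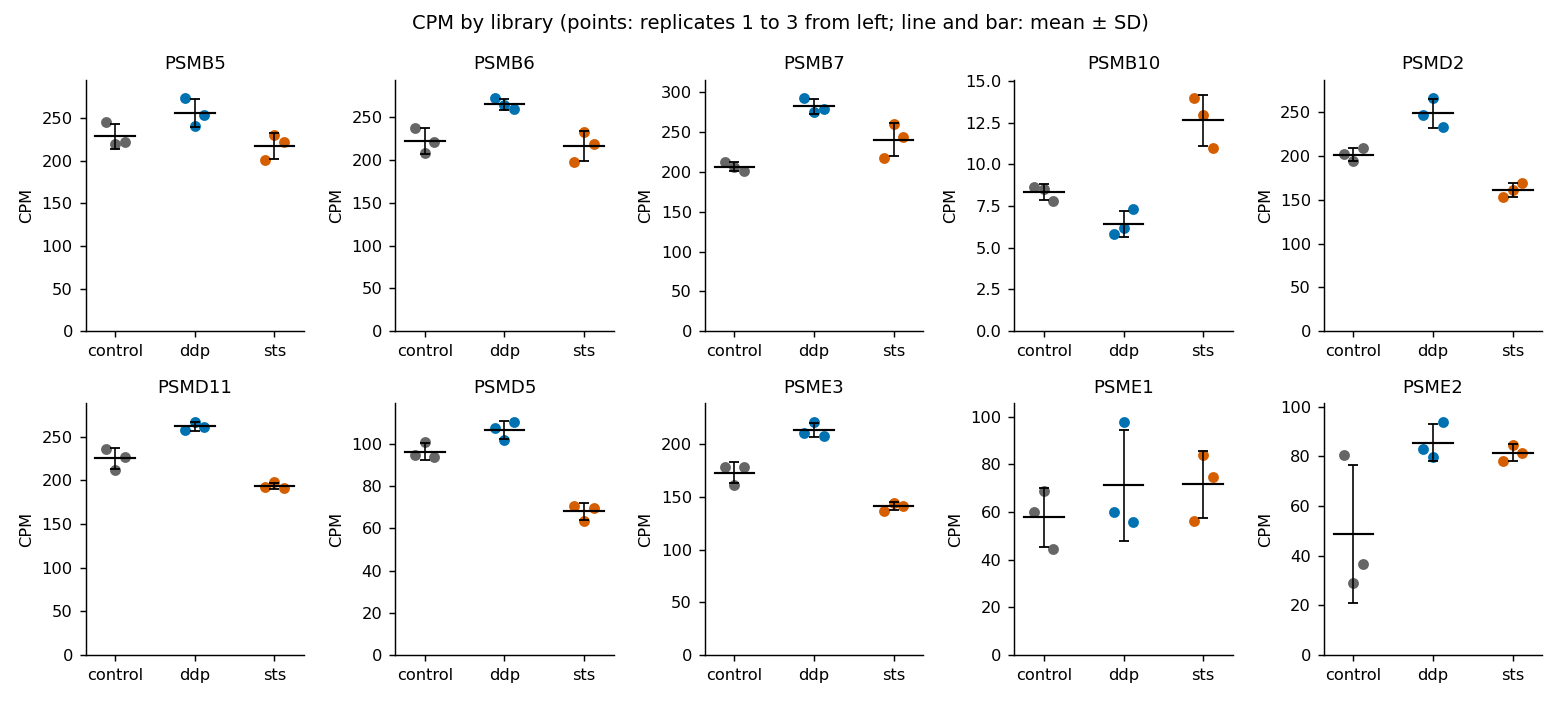
CPM of 10 members in each library, with mean and SD of each group; every axis starts at 0. PSMD2, PSMD11 and PSME3 show 3 separate groups, PSMB10 is highest in sts (10.98 to 14.0 CPM), and PSME2 has 1 control library at 80.5 CPM against 28.9 and 36.5 in the other controls.

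Of the 7 assembly chaperones, 4 were lower and 1 higher with sts than with ddp, 1 was lower with sts than in control, and 0 were called with ddp against control. Over all genes, 19.5% were lower and 20.2% higher with sts than with ddp, and 16.8% were lower with sts than in control. With ddp against control 7.16% were higher and 8.32% lower. PSMD5, a chaperone of the ATPase ring, had 94.7, 101 and 93.8 CPM in control, 108, 102 and 110.5 in ddp and 70.7, 63.7 and 69.8 in sts. All sts libraries were below both other groups by a wide margin. The log2 difference was −0.65 between sts and ddp (SE 0.08, adjusted p 3.48e-08), the most negative of any member in that comparison. With ddp against control PSMD5 was not called (0.15, 95% interval −0.01 to 0.30). CUTALP, a pseudogene row on the opposite strand, overlaps PSMD5 with 30.2% as many counts and was at −0.06 (adjusted p 0.696). PSMD10 (gankyrin), a further chaperone of the base, differed by −0.37 (0.000550), and PSMG1 and PSMG3, which help to form the alpha ring, by −0.31 (0.00234) and −0.23 (0.0413). PSMG3 lost its call without ddp replicate 1 or 2 or sts replicate 1 or 3. PSMD9, the third base chaperone of the list, was higher with sts (0.29, 0.0440), and that call was lost when any library other than sts replicate 1 was left out. PSMG2 and PSMG4 were not called in any comparison.

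The pair that are not subunits differed from each other. PSMC3IP had 13.3, 16.2 and 14.3 CPM in control, 20.8, 16.5 and 21.0 in ddp and 13.0, 13.0 and 13.2 in sts. It was higher with ddp than in control (0.41, adjusted p 0.0240) and lower with sts than with ddp (−0.57, 0.000558). The first call was lost without control replicate 1 or 3 or ddp replicate 1 or 3 (adjusted p up to 0.118). MLX, on the opposite strand, overlaps it with 419% as many counts and was itself lower with sts than with ddp (−0.35, 0.000682), so PSMC3IP is uncertain. PSME3IP1 stayed between 96.6 and 108 CPM in all libraries and was not called.

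Reads may be shared at other members too, since the library kit is not stated to mark strand. Of the 47 members 28 overlap another row and 17 have named pseudogene rows, 44 in all. In 18 members an overlapping row or the pseudogenes held at least 5% as many counts as the gene. Among the tested members without such rows, 26 in number, 6 rose with ddp and 17 were lower with sts than with ddp, against 1 higher. Over all genes tested the shares were 7.16%, 19.5% and 20.2%, in that order. PSMD2, PSMD1 and PSMD11 are among these 26. At PSMC5, FTSJ3 on the opposite strand was also lower with sts than with ddp (−0.48, adjusted p 1.33e-05) and held 38.2% as many counts. At PSMC2, DNAJC2 on the opposite strand held 25.5% as many counts and was lower in that comparison too (−0.26, 0.0180). PMPCB overlaps PSMC2 on the same strand with 47.6% as many counts and was not called there (−0.07, 0.517).

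The members lower with sts than with ddp had promoters with and without each motif. Among tested members with a matched promoter, 7 of 12 with the antioxidant response element core were lower with sts than with ddp, and 14 of 25 without it. For the CCAAT box these were 13 of 19 and 8 of 18, and for the ETS site 7 of 15 and 14 of 22. The medians of the log2 difference with and without the antioxidant response element core were both −0.21. With and without the CCAAT box they were −0.22 and −0.11, and with and without the ETS site −0.14 and −0.21. No test was made of these counts, and these letters in these windows say nothing about binding.

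Genes around the proteasome were read from 4 lists. Their counts stand beside the shares over all genes tested, 7.16% higher and 8.32% lower for ddp against control, 15.9% and 16.8% for sts against control, and 20.2% and 19.5% for sts against ddp. Of 12 proteasome-bound factors, 2 were higher with ddp than in control, UCHL5 (0.29, adjusted p 0.0186), a deubiquitinase of the cap, and ECPAS (0.28, 0.00675), which tethers cap to core. ZFAND5, a stimulator of the proteasome, was lower (−0.34, 0.00161). Lower with sts than in control were 2, UCHL5 (−0.42, 0.000334) and the ubiquitin ligase UBE3C (−0.28, 0.00282). Between the vesicle types 4 were lower with sts, led by UCHL5 (−0.71, 6.47e-08), UBE3C (−0.33, 0.000351) and the deubiquitinase USP14 (−0.27, 0.00584), and ZFAND5 was higher (0.19, 0.0447), a call that held among the omissions only without ddp replicate 2 or sts replicate 2. UCHL5 with ddp lost its call without control replicate 1 or 3 or ddp replicate 1 or 3, and ECPAS without control replicate 3.

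Shuttle factors, which carry tagged proteins to the proteasome, and the unfoldase p97 with its partners made up a list of 12. With ddp 2 rose, RAD23B (0.26, adjusted p 0.0105) and UBQLN4 (0.30, 0.0181), and 0 fell. With sts 4 fell against control, among them FAF1 (−0.61, 8.41e-07) and RAD23B (−0.24, 0.0102). Between the vesicle types 7 were lower with sts and 0 higher, led by FAF1 (−0.62, 3.61e-07), RAD23B (−0.50, 1.04e-06) and UBQLN1 (−0.30, 0.000705). RAD23B with ddp was not called without control replicate 3 or ddp replicate 3, and UBQLN4 with ddp not without control replicate 2 or 3 or ddp replicate 1 or 2. Among genes for ubiquitin precursors and activating enzymes, UBA6, an activating enzyme, fell with sts against control (−0.26, 0.0226) and was lower than with ddp (−0.32, 0.00390). Without sts replicate 2 neither call of UBA6 held (adjusted p 0.203 and 0.0520), and the first was also lost without control replicate 2 (0.0534).

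The last list held 11 transcriptional regulators. NFE2L1 had 95.7, 87.4 and 99.2 CPM in control, 92.1, 110.3 and 97.01 in ddp and 118, 114 and 111 in sts. Every sts library was above every control library, whereas ddp and control overlapped. The log2 fold change of NFE2L1 was 0.28 with sts (SE 0.08, adjusted p 0.00688; 0.0773 without control replicate 2) and 0.08 with ddp (SE 0.08, 0.546). NFE2L3, a relative of NFE2L1, had 9.63, 10.7 and 7.77 CPM in control, 23.9, 24.2 and 26.2 in ddp and 15.7, 11.7 and 15.6 in sts. It rose by 1.40 with ddp (adjusted p 2.42e-09) and by 0.61 with sts (0.000902), without overlap between groups. NFE2L2, which binds the same response element, had 119, 119 and 118 CPM in control, 90.8, 84.6 and 87.9 in ddp and 131, 118 and 133 in sts. It fell with ddp (−0.44, 6.31e-05) and was higher with sts than with ddp (0.54, 6.73e-07). Over the whole list 1 rose and 1 fell with ddp, 4 rose and 2 fell with sts, and between the vesicle types 4 were higher and 4 lower. Of the small MAF partners, MAFF (0.61, 0.00816; 0.0803 without control replicate 2) and MAFG (0.38, 0.000160) rose with sts against control and MAFK fell (−0.68, 2.28e-07).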

How the data were processed

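Per the labels' protocols, mRNA was sequenced, RNA was taken with TRIzol and libraries were made with a NEBNext Ultra kit, with no statement on strand. The submitters' processing notes name featureCounts 1.5.0-p3 and Subread, StringTie 1.3.3b, HISAT2 2.0.5, limma and build hg38, without roles. The authors deposited raw read counts, which are whole numbers, and FPKM values for the same 62257 rows. Of these, 61552 have an Ensembl ID and 61399 of those a gene symbol. The other 705 unannotated rows held 0.313% to 0.357% of the counts. Gene types came from GENCODE v29.

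The members, the gene lists and the rule for named genes were chosen with earlier results of these data known. Counts of all 9 libraries were fitted once with edgeR 4.0.16 (R 4.3.3), quasi-likelihood with robust settings, TMM factors, the default expression filter and no covariates. Every adjusted p is the Benjamini-Hochberg value of that fit over 16947 genes, unless another setting is named, and calls use 0.05. SE is the log2 fold change divided by the square root of F, and the biological coefficient of variation was 0.0992. CPM use TMM-scaled totals, except that marker sums use the totals as counted. Values are mean ± SD of 3 libraries. The rule named, per comparison and role, up to 3 called members of smallest p and the member of largest change, with PSMB5, PSMB6, PSMB7, PSMB10, PSMD4, PSMD14, PSME1 to PSME4, members outside the filter, NFE2L1, and up to 3 called genes of smallest p per surrounding list. Further called members and neighbouring genes were named after their values were seen. Some genes the rule took are left out of the text. Same-numbered libraries of different groups did not deviate together (r from −0.0847 to 0.0547 in 9 pairs). The scripts were tested on simulated data. Alternatives were other scaling factors and filters, DESeq2 1.42.0, limma 3.58.1 on log2(FPKM + 1) and log2(FPKM + 0.1), fits of the compared groups alone, a replicate block, and each library left out.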

Additional observations from a re-analysis of the deposited data

How the results depend on the processing

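Over 21 alternatives, the median log2 fold change of the members kept its direction in every comparison. No called member changed sign. Of the called members, 3 of 8 with ddp, 5 of 9 with sts and 15 of 26 between the vesicle types were called under all settings run. The 8 members higher with ddp were 4 with limma on log2(FPKM + 1) without a filter, and 4 to 8 with 1 library left out. Of all genes, 1.2% were called higher under that limma setting and 4.47% to 7.46% with 1 library left out. The main fit called 7.16%. The 3 members higher with sts than in control were 1 without a filter and 1 with limma on log2(FPKM + 1), with or without a filter, and on log2(FPKM + 0.1), and 1 to 3 with 1 library left out. All-gene shares were 6.26% without a filter, 15%, 4.41% and 14.7% with limma in that order, and 11.8% to 15.5% over the omissions. The 6 lower members were 4 to 11. Over all alternatives 5.12% to 18.9% of all genes were lower in that comparison. Between the vesicle types the 2 higher members were 1 with median-of-ratios factors, DESeq2, no filter, each limma setting, only the groups compared, the replicate block, or without members that share reads, a setting chosen after seeing the data, and 1 to 2 with 1 library left out. For all genes the shares called higher were 5.76% to 20.2% under those settings and 16.5% to 18.8% over the omissions. The 24 lower members were 18 with upper-quartile factors, 17 with limma on log2(FPKM + 1) without a filter, and 14 to 25 with 1 library left out. The matching shares of all genes were 17.5%, 6.49% and 16.6% to 19.5%.

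With the replicate block, 7 members were higher with ddp, 3 higher and 5 lower with sts, and 21 lower and 1 higher between the vesicle types. Shares of all genes, in that order, were 6.25%, 15.2%, 16%, 18.5% and 19.4%. PSMD11 with ddp (adjusted p 0.0601) and PSMD6 with sts (0.0632) were not called under it.

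Members near 0 changed sign without a call. PSMB6 with sts was 0.00083 without control replicate 1 and 0.0133 without sts replicate 1 (−0.0987 to 0.0133 over all omissions). PSME4 with sts was 0.0197 with upper-quartile factors and −0.0480 to 0.0245 over the omissions, and between the vesicle types −0.0164 to 0.0562. PSMA2 with sts was −0.0167 to 0.556. PSME1 between the vesicle types was −0.00468 with median-of-ratios factors, −0.0127 without a filter, −0.0143 with DESeq2, and −0.144 to 0.292 over the omissions. Causes were not tested. PSMA2 had at most 32 counts in a library.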
